A study of Mus musculus with 16 samples.

Results

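Regulators of G protein signalling, the RGS proteins, were described through 10 genes: Rgs2, Rgs4, Rgs7, Rgs8, Rgs9, Rgs10, Rgs14, Rgs16, Rgs17 and Rgs20. A probe set was taken where the platform's probe-to-gene table gave such a gene as its only symbol. This gave 18 probe sets of the 45037 tested and 10 genes of the 17097 that had a probe set of their own. The 10 genes were chosen by family, with earlier results of these arrays known, so the log2 levels and differences below count among the values they were selected on. All values and p-values of these genes are therefore given as a description, and no count of them is read against the rest of the array.

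RGS proteins bind the GTP-loaded alpha subunit of heterotrimeric G proteins and speed its GTP hydrolysis, which shortens the signal of the receptor upstream. Rgs2, Rgs4, Rgs8 and Rgs16 belong to the small R4 family. Rgs7 and Rgs9 belong to the R7 family, which works in complex with the G beta 5 subunit. Rgs10 and Rgs14 belong to the R12 family, and Rgs17 and Rgs20 to the RZ family. In the striatum the long splice form of Rgs9 is known as a brake on dopamine D2 receptor signalling, and Rgs4 as a brake on Gi- and Gq-coupled receptors.

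Total RNA labelled as striatum came from male mice aged 7 to 8 weeks. They belonged to the inbred strain A/JOlaHsd, called A/J here, or to the inbred strain DBA/2JRccHsd, called DBA/2J. In each strain 4 mice received risperidone, an antipsychotic drug that is an antagonist at D2 and 5-HT2A receptors, by intraperitoneal injection at 1 mg/kg a day on 3 days in a row. The remaining 4 per strain carry the label untreated, although the common treatment protocol mentions saline, and are called control mice. No engineered allele is named for any group, and the sample titles number the 16 arrays as separate biological replicates. DBA/2J risperidone replicates 2, 3 and 4 carry the same description label, although their values differ, so that their origin from separate mice rests on the titles. Expression is given as a log2 level per probe set, and a group of 4 arrays limits their precision.

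Some arrays and marker genes stood apart. Over 46 to 49 strain marker probe sets, chosen for each control array without that array, the DBA/2J share of signal was between -2.3% and 0.993% in A/J control arrays and between 96.1% and 103% in DBA/2J control arrays. Over 49 in the risperidone arrays, it was 27.9%, 36.2%, 0.584% and 39.1% in A/J replicates 1 to 4, and in DBA/2J it ran from 87.6% to 102%. A/J risperidone replicates 1, 2 and 4 thus lay between the strains, and they enter every comparison that uses A/J risperidone mice. DBA/2J control replicate 4 had a mean correlation of 0.9754 with the other arrays, the lowest of the 16. Of 12 striatal projection neuron markers 10 were measured, and 9 lay above the array medians (5.66 to 5.71) in 16 of 16 arrays, among them Gnal at 8.12 to 8.80, Penk at 6.13 to 7.98 and Ppp1r1b at 5.99 to 7.57. The tenth, Drd2, the gene of the D2 receptor, lay between 3.62 and 4.90 and below the median in all 16. Of 9 cerebral cortex markers 8 were measured and all 8 lay above the array medians, with the cortical transcription factor gene Tbr1 at 8.06 to 8.79 and the vesicular glutamate transporter gene Slc17a7 at 9.52 to 10.2. The part of other regions in the RGS values was not tested. In a piece of tissue, fewer cells of a type and less RNA per cell cannot be told apart.

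Rgs4, an R4 member abundant in forebrain neurons, had lower values after risperidone in both strains, and it supplied the member probe set that passed for the risperidone effect averaged over the strains. The gene lies on chromosome 1 at 169741477 to 169747642 in the GRCm38.p6 build and was measured by 3 probe sets. With 1448285_PM_at, the A/J control arrays (replicates 1 to 4 in this order, as in all lists of 4 values here) were at 9.34, 9.24, 9.14 and 9.06, and the A/J risperidone arrays at 8.88, 8.85, 8.76 and 8.87. In DBA/2J, control arrays were at 8.93, 9.01, 8.90 and 8.93 and risperidone arrays at 8.31, 8.76, 8.41 and 8.43. Every risperidone array was below every control array of its strain, and DBA/2J risperidone replicate 2 was the nearest to its controls. Averaged over the strains, the probe set fell by 0.41 ± 0.07 on the log2 scale (SE, n = 4 per group, 1.33-fold, limma, adjusted p = 0.0252), which ranked 10 among the p-values of all probe sets.

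Within a strain the same probe set did not pass. Its log2 difference, risperidone minus control, was -0.36 ± 0.09 (SE) in A/J (adjusted p = 0.427) and -0.47 ± 0.09 in DBA/2J (adjusted p = 0.099). The difference between these responses was -0.11, with a 95% interval from -0.38 to 0.16 (interaction, adjusted p = 0.805). The group means ran from 9.20 ± 0.12 (SD) in A/J control mice through 8.94 ± 0.05 in DBA/2J control mice and 8.84 ± 0.05 in A/J risperidone mice to 8.48 ± 0.20 in DBA/2J risperidone mice. The middle groups lay side by side, at 8.90 to 9.01 and 8.76 to 8.88, and differ in both strain and drug.

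**Figure D1:**
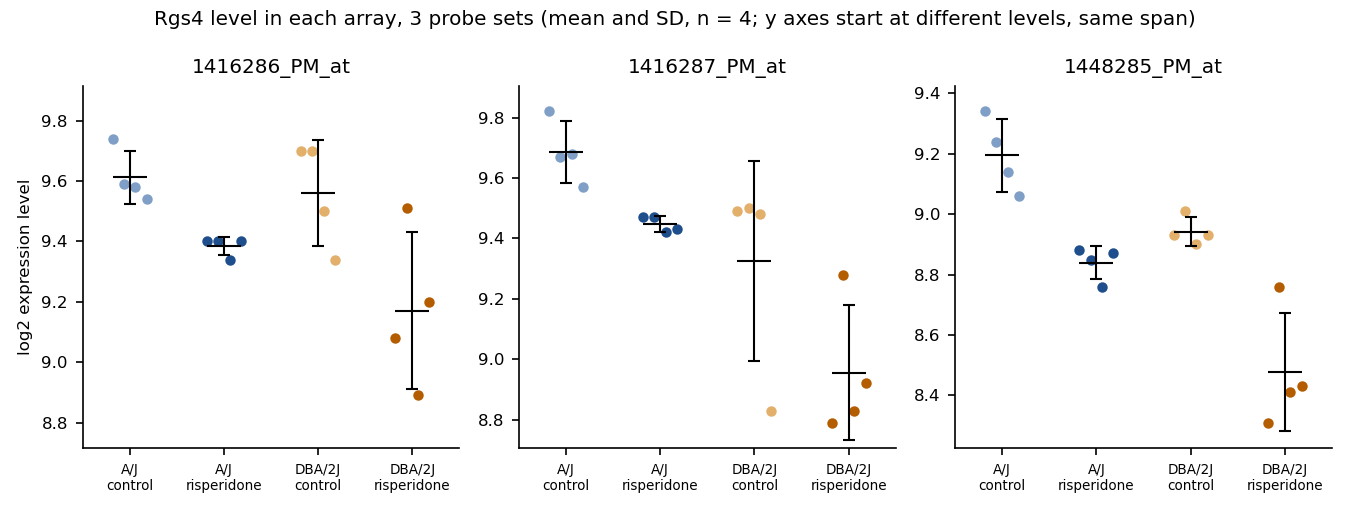
Log2 expression level of Rgs4 in each of the 16 arrays for its 3 probe sets, by group; dots are arrays, the bar is the group mean and the whisker the SD (n = 4). The y axes start at different levels and cover the same span. With 1448285_PM_at the risperidone arrays lie below the control arrays in each strain, while with 1416286_PM_at and 1416287_PM_at the DBA/2J groups overlap.

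The other Rgs4 probe sets showed the same direction without passing. The lead probe set, meaning the one with the highest mean over all arrays, was 1416286_PM_at, at 9.74, 9.59, 9.58 and 9.54 in A/J control mice and 9.40, 9.40, 9.34 and 9.40 in A/J risperidone mice. In DBA/2J it was at 9.70, 9.70, 9.50 and 9.34 in control and 9.08, 9.51, 8.89 and 9.20 in risperidone mice. The A/J groups did not overlap and the DBA/2J groups did, through risperidone replicate 2 and control replicates 3 and 4. Its mean risperidone difference was -0.31 ± 0.08 (SE, adjusted p = 0.373), and that of 1416287_PM_at was -0.30 ± 0.09 (adjusted p = 0.519). With 1416287_PM_at, DBA/2J control replicate 4 was at 8.83 against 9.48 to 9.50 in its fellow control arrays, and leaving it out gave a DBA/2J difference of -0.54 ± 0.10 (adjusted p = 0.107) in place of -0.37 ± 0.13 (adjusted p = 0.348).

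The probe sets of Rgs4 were least alike between the strains. In control mice DBA/2J minus A/J was -0.05 ± 0.11 (SE) with 1416286_PM_at, -0.25 ± 0.09 with 1448285_PM_at and -0.36 ± 0.13 with 1416287_PM_at (adjusted p = 0.852, 0.15 and 0.155). With the latter 2 probe sets the strains did not overlap. In risperidone mice the values were -0.22 ± 0.11, -0.36 ± 0.09 and -0.49 ± 0.13 (adjusted p = 0.583, 0.0872 and 0.115). These include the A/J arrays of intermediate DBA/2J share. With 1416287_PM_at the groups did not overlap, and the difference passed without DBA/2J control replicate 4 (-0.49 ± 0.09, adjusted p = 0.0101). That array is in neither group compared, so the difference stayed the same and only its SE became smaller. Of 16 arrays left out in turn, 2 gave a call for this probe set. For strain in control mice, the lead minus 1416287_PM_at was 0.31 ± 0.10 (adjusted p = 0.131 over 11801 probe set pairs, 2.31% of them called). For strain in risperidone mice it was 0.28 ± 0.10 (adjusted p = 0.339, with 0.5% of pairs called).

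The call on 1448285_PM_at was lost when any of 10 of the 16 arrays was left out, while its difference stayed between -0.46 and -0.38. These were A/J control replicates 1 and 2, A/J risperidone replicates 1, 2 and 4, DBA/2J control replicates 1 and 2 and DBA/2J risperidone replicates 1, 3 and 4, and over all 16 the adjusted p ran from 0.00195 to 0.0876. With the DBA/2J share as a covariate the difference was -0.45 ± 0.08 (SE, adjusted p = 0.117), and without the 3 A/J risperidone arrays of intermediate share, which leaves 1 array in that group with its spread taken from the others, -0.45 ± 0.10 (adjusted p = 0.676). In DBA/2J alone the probe set passed without risperidone replicate 2 (-0.56 ± 0.08, adjusted p = 0.0171).

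Activity-regulated early genes, induced in neurons by firing, are given beside Rgs4 because they had the lowest values of the lists after risperidone. Of 20 measured, 20 were lower in the mean over the strains (median -0.24, against 0.0013 over all genes). By their lead probe set 5 fell, where 0.0266% of all probe sets were called. Fos, which encodes an AP-1 protein, fell by 0.68 ± 0.07 (SE, adjusted p = 0.000638) and Arc, which acts on AMPA receptors at synapses, fell by 0.60 ± 0.09 (adjusted p = 0.023). Egr2, Btg2 and Dusp1 also fell, by 0.70, 0.46 and 0.37. In A/J 17 of the 20 were lower (median -0.18, 0 called and 7 at an unadjusted p under 0.05). In DBA/2J 20 were lower (median -0.40, 5 called and 14 at an unadjusted p under 0.05, with 0.04% of all probe sets called). Between control mice 18 of the 20 were higher in DBA/2J (median 0.17, 2 called, with 3.87% of all probe sets called). Between risperidone mice 8 of the 20 were higher in DBA/2J (median -0.03, 0 called). The comparisons with control mice use the same control arrays as the RGS values.

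The upstream sequences of Rgs4 and Rgs2 are shown because they set the member with the clearest risperidone values beside another R4 member, and each held the core of the cAMP response element at 2 places. The 250 bases before the transcription start were taken from RefSeq's annotation of GRCm38.p6, and 8 of the 10 members had an entry; Rgs14 and Rgs20 had none. Capitals mark the motif CGTCA or, on the other strand, TGACG. Rgs4 is on the minus strand at chr1:169747643-169747892 and Rgs2 on the minus strand at chr1:144004150-144004399.
Rgs4: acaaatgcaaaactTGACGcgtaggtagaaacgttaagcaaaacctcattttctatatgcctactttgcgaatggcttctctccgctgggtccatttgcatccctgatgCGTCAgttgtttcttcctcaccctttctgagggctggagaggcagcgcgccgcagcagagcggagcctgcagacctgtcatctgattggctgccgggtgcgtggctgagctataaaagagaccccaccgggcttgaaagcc
Rgs2: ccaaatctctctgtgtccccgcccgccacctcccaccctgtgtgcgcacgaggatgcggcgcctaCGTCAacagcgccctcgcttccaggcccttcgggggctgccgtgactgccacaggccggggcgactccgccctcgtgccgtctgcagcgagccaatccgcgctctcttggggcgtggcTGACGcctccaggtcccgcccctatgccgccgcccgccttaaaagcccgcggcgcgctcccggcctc
In Rgs4 the matches lay 236 to 232 and 141 to 137 bases before the start, and a TATAAA box lay 31 to 26 bases before it. In Rgs2 they lay 185 to 181 and 67 to 63 bases before the start. The motif was present on either strand in 17.8% of 32851 windows of this length, so these matches describe the sequence only. The first of 3 Rgs8 windows held it too. The full element TGACGTCA, which contains the core, was in 1.55% of windows and in none of the matched members. The AP-1 motif TGANTCA (6.75% of windows) was found in Rgs17, the EGR motif GCGNGGGCG (4.7%) in Rgs2, and TATAAA (12.4%) in Rgs4 and Rgs9, each searched on both strands.

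Rgs2, an R4 member that acts mainly on Gq, was highest in DBA/2J control mice, by differences that did not pass. The gene lies on chromosome 1 at 143999338 to 144004149. The lead probe set 1419247_PM_at was at 8.63, 8.54, 8.56 and 8.70 in A/J control mice and 8.69, 8.59, 8.31 and 8.63 in A/J risperidone mice. In DBA/2J it was at 8.72, 8.77, 8.81 and 8.80 in control mice and 8.52, 8.62, 8.47 and 8.66 in risperidone mice. The DBA/2J control arrays were the highest 4 of the 16 and overlapped neither their risperidone group nor the A/J control arrays. The difference in DBA/2J was -0.21 ± 0.09 (SE, adjusted p = 0.406) and in A/J -0.05 ± 0.09 (adjusted p = 0.997). Between control mice, DBA/2J minus A/J was 0.17 ± 0.09 (adjusted p = 0.317).

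The lead probe set of Rgs2 and 1419248_PM_at separated the groups in different strains, but their changes were not called unequal. With 1419248_PM_at, the A/J control arrays at 7.83 to 7.89 lay above the risperidone arrays at 7.62 to 7.80 (difference -0.12 ± 0.10, adjusted p = 0.982), and the DBA/2J groups overlapped (-0.05 ± 0.10, adjusted p = 0.890). The third, 1443250_PM_at, was at 3.67 to 4.48 over the 16 arrays, below every array's median, and its difference was 0.09 in either strain. In DBA/2J, the lead minus 1443250_PM_at was -0.30 ± 0.15 (adjusted p = 0.639 over 11801 pairs, of which 0% were called). The lead minus 1419248_PM_at was 0.07 ± 0.12 in A/J (adjusted p = 0.999) and -0.16 ± 0.12 in DBA/2J (adjusted p = 0.702).

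Rgs16, an R4 member that acts on Gi and Gq, was the member that passed for strain. DBA/2J mice had the lower signal, in control mice and, without passing, in risperidone mice. Whether its probes match both strains equally was not analysed. The gene lies on chromosome 1 at 153740353 to 153745468. The lead probe set 1451452_PM_a_at was at 6.79, 6.34, 7.29 and 7.06 in A/J control mice and 6.16, 6.21, 6.30 and 6.32 in DBA/2J control mice. All A/J control arrays were above all DBA/2J control arrays, replicate 2 by the smallest margin, and the A/J values were the more spread. DBA/2J minus A/J was -0.62 ± 0.16 (SE, n = 4 per group, 1.54-fold, limma, adjusted p = 0.0317).

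In risperidone mice the levels were 6.58, 6.56, 7.03 and 6.38 in A/J and 6.11, 6.18, 6.15 and 6.34 in DBA/2J. The strains again did not overlap, and the difference of -0.44 ± 0.16 (SE) did not pass (adjusted p = 0.322). This strain difference includes the 3 A/J risperidone arrays of intermediate strain share. The risperidone differences were -0.23 ± 0.16 in A/J (adjusted p = 0.959) and -0.05 ± 0.16 in DBA/2J (adjusted p = 0.928). Without the 3 A/J risperidone arrays of intermediate strain share, the A/J difference was 0.16 ± 0.24 (adjusted p = 0.999), with replicate 3 as the only risperidone array. The second probe set, 1426037_PM_a_at, gave -0.46 ± 0.14 between the strains in control mice (adjusted p = 0.0796) and -0.35 ± 0.14 in risperidone mice (adjusted p = 0.409), with no overlap in either.

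Thalamus markers are given beside Rgs16, and their part in its values was not tested. Of 10 listed 9 were measured, none at 0, and 9 of 9 were lower in DBA/2J among control mice (median -0.60, against -0.0025 over all genes), with Plekhg1 (-0.83) and Ntng1 (-0.60) passing by their lead probe sets and Prkcd by another (-1.97 ± 0.42, adjusted p = 0.00961). Their mean level ran from 6.05 to 7.53 in A/J control, from 6.29 to 6.94 in A/J risperidone, from 5.99 to 6.17 in DBA/2J control and from 6.06 to 6.55 in DBA/2J risperidone arrays. A/J control replicate 3 had the highest of the 16 marker levels and the highest Rgs16 level, and A/J control replicate 2 had the lowest of its group in both. In each of the other 3 groups too, the array with the highest marker level had the highest Rgs16 level. Thalamus markers were not alone in this. The mean oligodendrocyte marker level was also highest in the top Rgs16 array of A/J control (9.413), A/J risperidone (9.055) and DBA/2J risperidone mice (9.04). In DBA/2J control mice the top Rgs16 array, replicate 4, had the lowest oligodendrocyte level of its group (8.092).

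With the mean levels of thalamus, striatal projection neuron and choroid plexus markers as covariates, the Rgs16 strain difference was -0.28 ± 0.14 (SE, adjusted p = 0.504). Without A/J control replicate 3 it was -0.48 ± 0.15 (adjusted p = 0.117). Nor did it pass without A/J control replicate 1 or 4, without DBA/2J control replicate 1, 2 or 3, with differences between -0.80 and -0.48 and adjusted p from 0.00235 to 0.117 over the 16 arrays left out in turn.

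**Figure D2:**
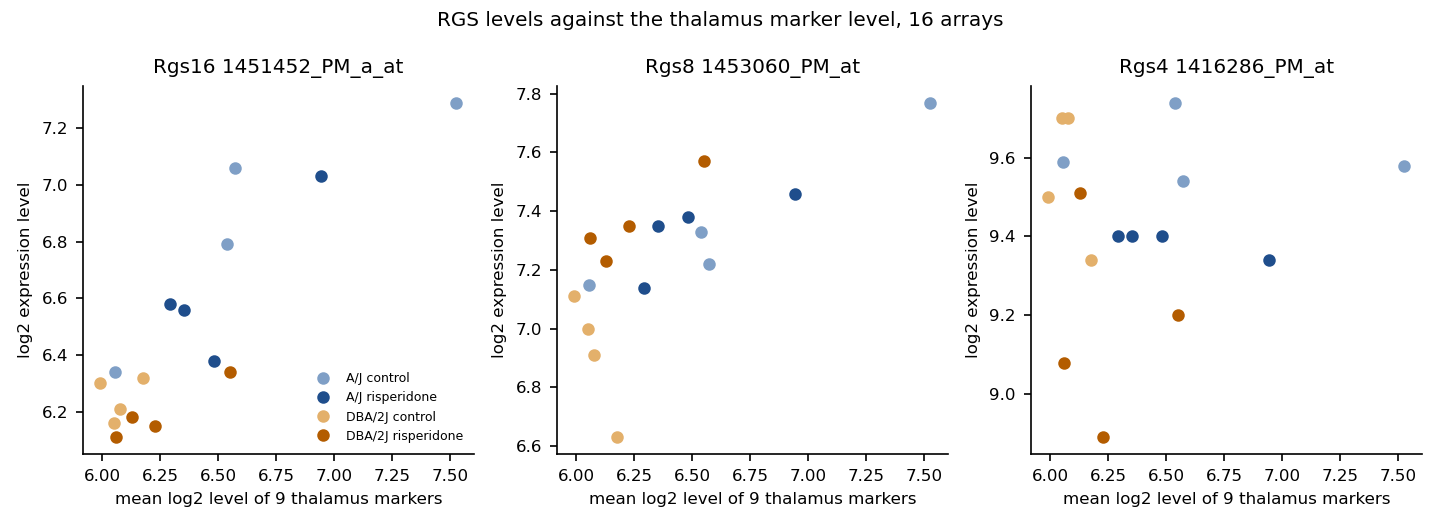
Log2 level of the lead probe sets of Rgs16, Rgs8 and Rgs4 (y axes) against the mean log2 level of 9 thalamus markers (x axis) in each of 16 arrays, coloured by group. A/J control replicate 3, at a marker level of 7.53, has the highest Rgs16 (7.29) and Rgs8 (7.77) levels. Its Rgs4 level of 9.58 is below those of A/J control replicates 1 (9.74) and 2 (9.59).

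The upstream window of Rgs16 is shown as the counterpart of those of Rgs4 and Rgs2, since none of the motifs searched was found in it. It is on the plus strand at chr1:153740103-153740352.
Rgs16: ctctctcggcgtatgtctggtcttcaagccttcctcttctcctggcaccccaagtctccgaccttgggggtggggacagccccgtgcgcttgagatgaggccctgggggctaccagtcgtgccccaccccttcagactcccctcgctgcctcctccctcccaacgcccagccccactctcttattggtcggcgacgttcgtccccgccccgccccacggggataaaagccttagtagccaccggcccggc
Nothing is drawn from the missing match. Rgs8 is its neighbour on chromosome 1, with 42.7 kb and 1 annotated gene between them, and 6 of the 10 members lie on that chromosome.

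Rgs8, an R4 member that acts on Gi and Gq, was low in DBA/2J control mice alone. Its probe set 1453060_PM_at was at 7.33, 7.15, 7.77 and 7.22 in A/J control mice and 7.14, 7.35, 7.46 and 7.38 in A/J risperidone mice. In DBA/2J it was at 7.00, 6.91, 7.11 and 6.63 in control mice and 7.31, 7.23, 7.35 and 7.57 in risperidone mice. The DBA/2J control arrays were the lowest 4 of the 16, and the other groups overlapped each other. The difference between risperidone and control was 0.45 ± 0.13 (SE) in DBA/2J (adjusted p = 0.244) and -0.04 ± 0.13 in A/J (adjusted p = 0.997). In DBA/2J, striatal projection neuron markers were higher after risperidone in 8 of 10 (median 0.21), thalamus markers in 7 of 9 (median 0.14) and oligodendrocyte markers in 5 of 6 (median 0.22), with 0 called in these lists and 3, 0 and 0 at an unadjusted p under 0.05. The response of Rgs8 in DBA/2J minus that in A/J was 0.49, with a 95% interval from 0.10 to 0.87 before adjustment (adjusted p = 0.461).

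Between the strains, Rgs8 in control mice was at -0.46 ± 0.13 (SE, adjusted p = 0.0573), just outside the threshold of 0.05. In risperidone mice, with the A/J arrays of intermediate strain share included, it was at 0.03 ± 0.13 (adjusted p = 0.970). Both the risperidone and the strain difference use the DBA/2J control arrays. Without DBA/2J control replicate 4, the lowest array, they were 0.36 ± 0.13 (adjusted p = 0.400) and -0.36 ± 0.13 (adjusted p = 0.151). With the 3 regional marker levels as covariates they were 0.29 ± 0.12 (adjusted p = 0.753) and -0.13 ± 0.13 (adjusted p = 0.799). Over the 16 arrays left out in turn, the strain difference in control mice ran from -0.53 to -0.32 (adjusted p from 0.0424 to 0.191). It was smallest without A/J control replicate 3, the array with the highest Rgs8 level.

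**Figure D3:**
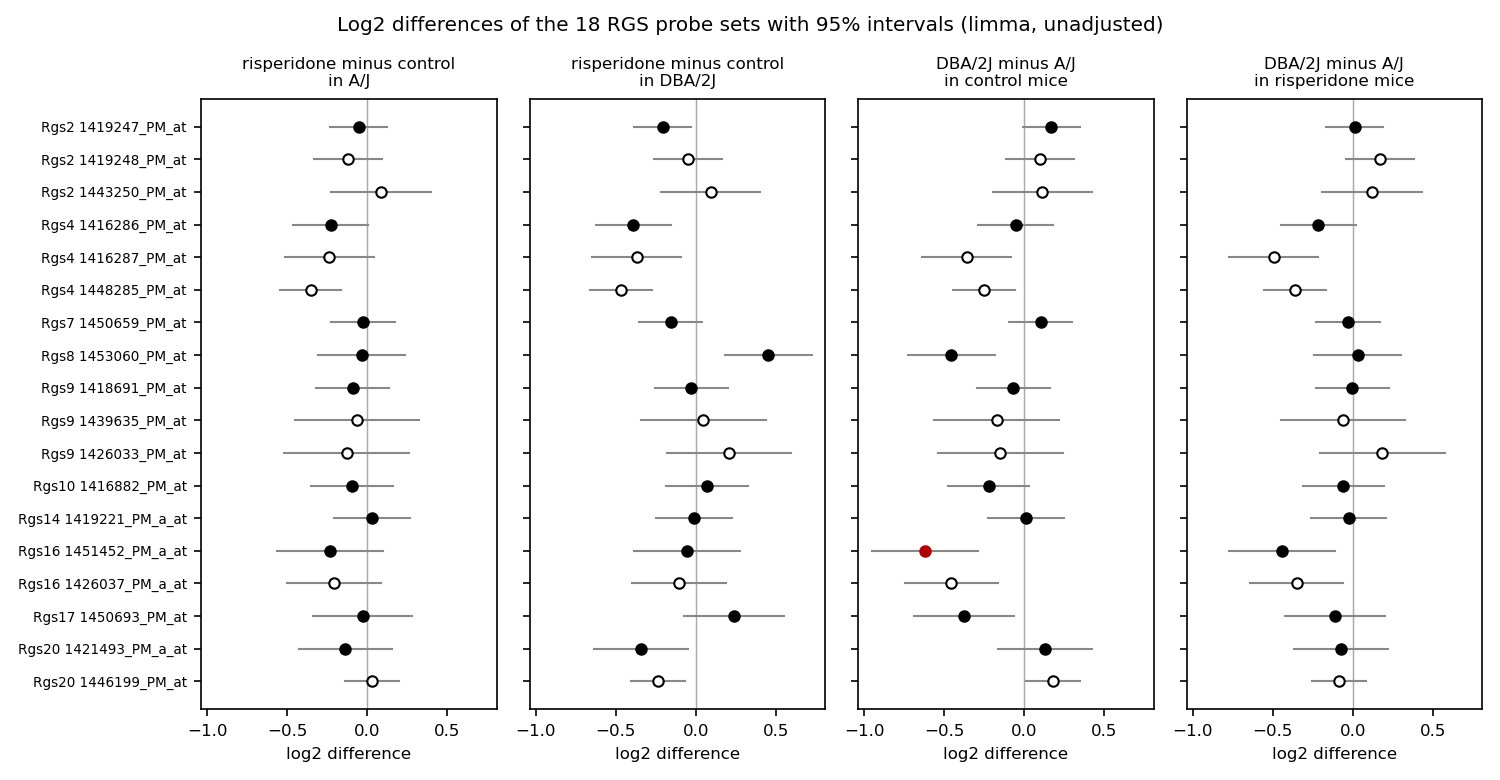
Log2 differences (x axes) of the 18 RGS probe sets (rows) in 4 comparisons, with 95% intervals from limma before adjustment; filled dots are lead probe sets, open dots other probe sets, and red marks an adjusted p under 0.05. The 3 Rgs4 probe sets lie left of 0 in both risperidone panels, and Rgs16 1451452_PM_a_at is the red dot at -0.62 in control mice.

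The R7 members Rgs7 and Rgs9 showed no separation of groups in any comparison. Rgs7, with 1450659_PM_at, lay between 8.19 and 8.63 over the 16 arrays. Its risperidone difference was -0.03 in A/J (95% interval -0.23 to 0.17) and -0.16 in DBA/2J (-0.36 to 0.04, adjusted p = 0.554). Rgs9, a gene known for striatal expression, was at 6.16, 6.01, 6.04 and 5.83 in A/J control mice with its lead probe set 1418691_PM_at. Over all arrays it ran from 5.73 to 6.27, slightly above the array medians. Its risperidone difference was -0.09 (95% interval -0.32 to 0.13) in A/J and -0.03 (-0.25 to 0.20) in DBA/2J.

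The other Rgs9 probe sets, 1439635_PM_at and 1426033_PM_at, lay between 4.29 and 5.44, below the array medians, and had SEs of 0.19 within a strain against 0.11 for the lead. In DBA/2J the lead was at -0.03 and 1426033_PM_at at 0.21 after risperidone, a gap of -0.24 ± 0.18 (adjusted p = 0.707).

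Genes for partners of the R7 proteins were a list of 5. Rgs7bp, which anchors R7 complexes at the membrane, was lower in DBA/2J among control mice (-0.30 ± 0.08 SE, adjusted p = 0.0481) and was the member of the list that passed in any comparison. Gnb5, the G beta 5 subunit itself, was at 0.19 ± 0.09 between the strains (adjusted p = 0.278) and at -0.13 ± 0.09 after risperidone in DBA/2J (adjusted p = 0.614). After risperidone 3 of 5 were lower in A/J and 5 of 5 in DBA/2J, with medians of -0.03 and -0.06 and 0 called (by lead probe set 1 in A/J and 0 in DBA/2J had an unadjusted p under 0.05).

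The R12 members did not separate either. Rgs10, which is also known in microglia, lay between 6.78 and 7.45 with 1416882_PM_at, and the strain difference in control mice was -0.22 ± 0.12 (SE, adjusted p = 0.353). Microglia markers were lower in the same comparison in 6 of 6 measured, with a median of -0.35, Cx3cr1 (-1.05) and P2ry12 (-0.38) passing, and mean levels of 6.63 to 6.79 in A/J against 6.08 to 6.33 in DBA/2J control arrays; their part in the Rgs10 value was not tested. Rgs14, with 1419221_PM_a_at, lay between 5.77 and 6.29, and all 4 of its differences within a strain or treatment were between -0.03 and 0.03.

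The RZ members Rgs17 and Rgs20, which act on Gi and Gz, had values that DBA/2J control replicate 4 moved. Rgs17, with 1450693_PM_at, was at 7.35, 7.52, 7.31 and 6.63 in DBA/2J control mice, where replicate 4 was the lowest of the 16 arrays. The other groups were at 7.40 to 7.71 in A/J control, 7.44 to 7.64 in A/J risperidone and 7.14 to 7.56 in DBA/2J risperidone mice. The strain difference in control mice was -0.38 ± 0.15 (SE, adjusted p = 0.186), and -0.19 ± 0.11 without that array (adjusted p = 0.431). The risperidone difference in DBA/2J was 0.24 ± 0.15 (adjusted p = 0.568), and 0.05 ± 0.11 without it.

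Rgs20, with the lead probe set 1421493_PM_a_at, was at 7.83, 7.98, 7.81 and 8.58 in DBA/2J control mice and 7.84, 7.85, 7.50 and 7.64 in DBA/2J risperidone mice. Control replicate 4 was the highest of the 16 arrays, and the groups overlapped. The difference of -0.34 ± 0.14 (SE, adjusted p = 0.401) was -0.17 ± 0.10 without that array (adjusted p = 0.698). With 1446199_PM_at the same groups did not overlap, at 6.17, 6.31, 6.12 and 6.33 against 5.82, 6.06, 6.07 and 6.04. That difference was -0.24 ± 0.08 (adjusted p = 0.320), and -0.20 ± 0.08 without control replicate 4 (adjusted p = 0.473). In A/J the probe sets were at -0.14 and 0.03, and neither group pair separated.

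**Figure D4:**
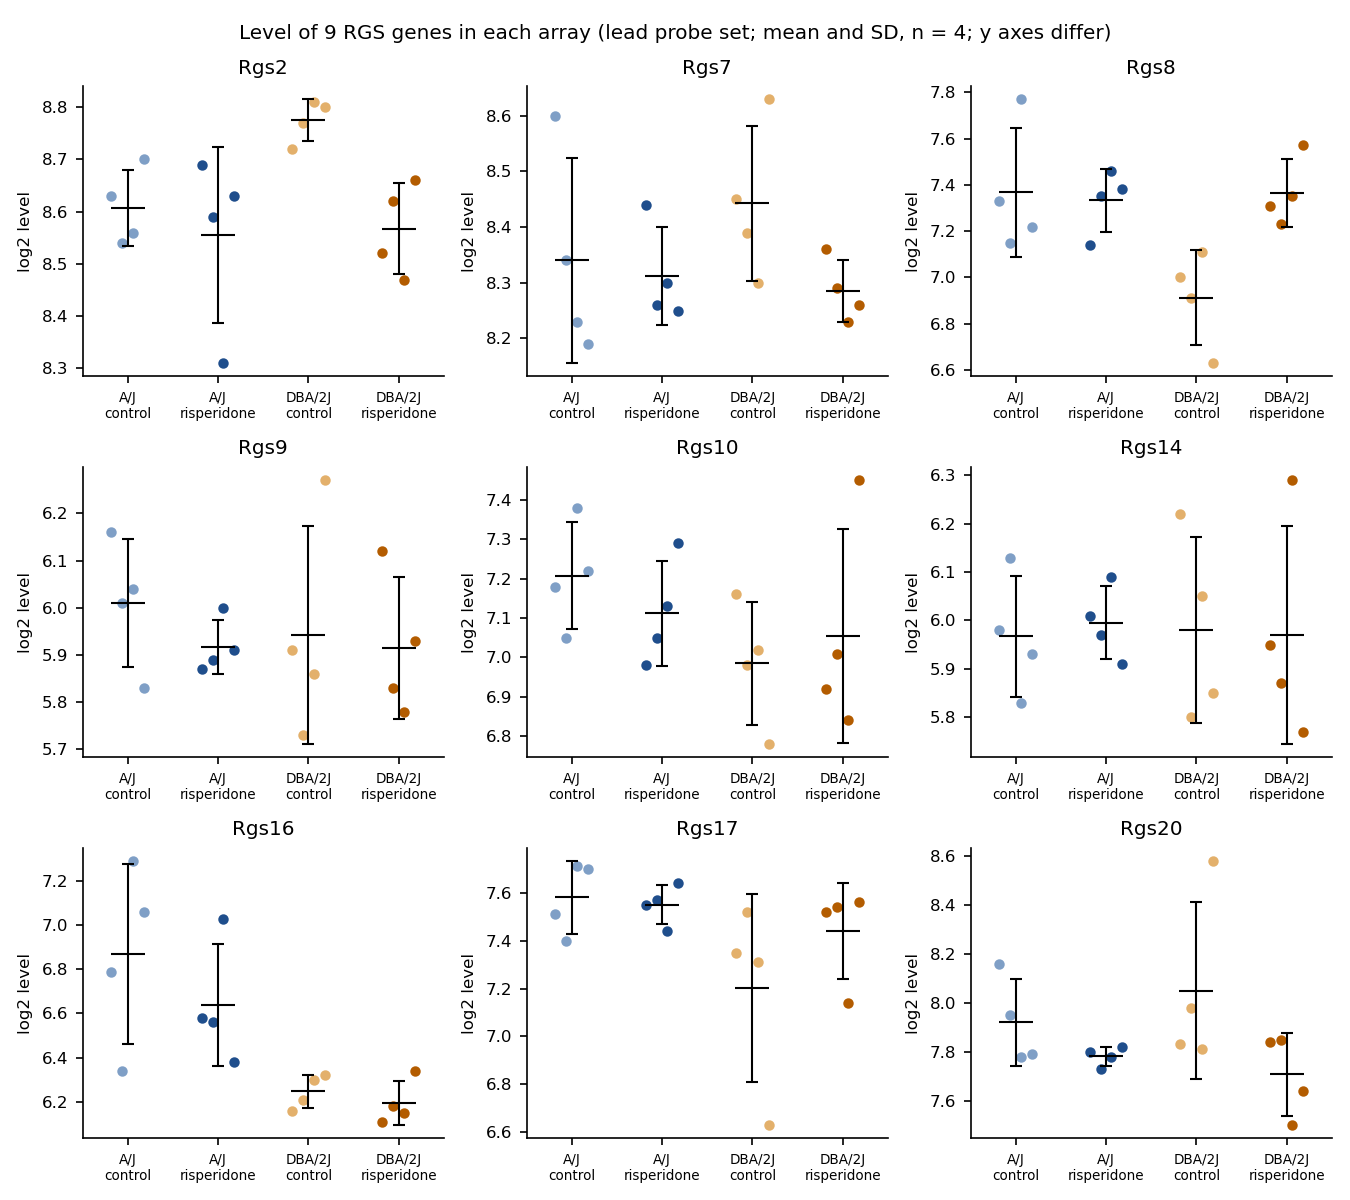
Log2 level of the lead probe sets of 9 RGS genes in each of the 16 arrays, by group; dots are arrays, the bar is the mean and the whisker the SD (n = 4), and each panel has its own y axis. The DBA/2J control arrays are the lowest for Rgs8 (6.63 to 7.11) and the highest for Rgs2 (8.72 to 8.81), and for Rgs16 no DBA/2J array is above 6.34, the lowest A/J value.

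Counted over the 18 probe sets, 0 passed for risperidone in A/J (0% of all probe sets were called, and 5.51% had an unadjusted p under 0.05, as did 1 of the 18). For risperidone in DBA/2J 0 passed (0.04% of all were called, and 10.7% had an unadjusted p under 0.05, as did 7 of the 18). These 7 belong to Rgs2, Rgs4, Rgs8 and Rgs20, some of them by several probe sets. In the mean of both strains 1 passed (0.0266% of all, and 6.9% at an unadjusted p under 0.05, as were 6 of the 18) and in the interaction 0 (0% of all, and 9.19% at an unadjusted p under 0.05, as were 2 of the 18). In the strain comparison of control mice 1 passed (3.87% of all, and 17.7% at an unadjusted p under 0.05, as were 7 of the 18) and in that of risperidone mice 0 (0.782% of all, and 9.43% at an unadjusted p under 0.05, as were 4 of the 18). Several probe sets of 1 gene enter these counts, so they are not counts of separate genes. The groups did not overlap for 4 probe sets in A/J, all lower after risperidone (2.08% of all probe sets were lower without overlap). These were the 3 of Rgs4 and Rgs2 1419248_PM_at. In DBA/2J 3 were lower (2.51% of all) and 1 was higher (1.89% of all), and 1 was lower in both strains (0.0733% of all). Between the strains 5 were lower in DBA/2J (4.42% of all) and 1 was higher (4.91% of all) in control mice, and 3 were lower in risperidone mice (3.53% of all). The 5 belong to Rgs4, Rgs8 and Rgs16, and the 3 to Rgs4 and Rgs16. The median of the 10 lead probe sets was -0.07 in A/J and -0.04 in DBA/2J, against -0.01 and 0.01 over all genes.

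Probe sets of a gene were compared directly for the 5 genes that had several. No pair of 8 differed in its change at an adjusted p under 0.05 in any of the 6 comparisons. Of all 11801 pairs 0.00847% were called for risperidone in A/J and 0% in DBA/2J. For strain, 2.31% were called in control mice and 0.5% in risperidone mice. The probe sets of a gene all had the same sign in 3 of 5 genes for risperidone in A/J, in 3 in DBA/2J and in 5 for strain in control mice. Rgs4 and Rgs16 were of 1 sign in all of these.

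Of 11 other RGS genes listed 9 were measured, by 20 probe sets. None passed for risperidone in either strain (0 of 20, and by lead probe set 0 of 9 in A/J and 2 of 9 in DBA/2J at an unadjusted p under 0.05), with 8 of 9 lower in A/J and 4 of 9 in DBA/2J (medians -0.04 and 0.08). Rgs12, a large scaffold of the R12 family, was at 0.56 ± 0.12 (SE) in DBA/2J (adjusted p = 0.148) and -0.06 ± 0.12 in A/J. Rgs6, an R7 member, was at -0.42 ± 0.12 in DBA/2J (adjusted p = 0.250). Rgs5, known as a marker of pericytes, was higher in DBA/2J control mice by 0.61 ± 0.11 with 1420940_PM_x_at (adjusted p = 0.0024) and at 0.29 ± 0.10 with its lead probe set (adjusted p = 0.118).

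Along the rest of the pathway, changes that passed were between the strains. Of 13 receptors measured none passed (by lead probe set 0 in A/J and 4 in DBA/2J had an unadjusted p under 0.05 for risperidone), with Drd2 at 0.56 ± 0.20 (SE, adjusted p = 0.328) and the serotonin receptor gene Htr2c at 1.09 ± 0.28 (adjusted p = 0.200) after risperidone in DBA/2J. Among 24 G protein subunits, 63 probe sets, 0 passed for risperidone (by lead probe set 0 in A/J and 2 in DBA/2J at an unadjusted p under 0.05). Gng2, a gamma subunit, was lower in DBA/2J with 1418452_PM_at in control (-0.41 ± 0.08, adjusted p = 0.00643) and in risperidone mice (-0.44 ± 0.08, adjusted p = 0.0111). Gnal, the striatal Gs-type alpha subunit, was lower in DBA/2J control mice with 1439957_PM_at (-0.53 ± 0.13, adjusted p = 0.0296). With its lead probe set it was at -0.35 ± 0.12 (adjusted p = 0.127). Among 6 receptor kinases and arrestins the lead probe sets did not pass (0 in A/J and 2 in DBA/2J had an unadjusted p under 0.05 for risperidone). Arrb2, a beta-arrestin, was higher in DBA/2J control mice with 1451987_PM_at only (0.59 ± 0.12, adjusted p = 0.00596). Its lead probe set had the opposite sign, at -0.145 ± 0.079 (adjusted p = 0.353).

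Of 19 effectors, 0 passed for risperidone in either strain, and by lead probe set 1 in A/J and 4 in DBA/2J had an unadjusted p under 0.05 (median -0.03 in A/J and -0.04 in DBA/2J). In the strain comparison of control mice 3 passed by their lead probe set, where 3.87% of all probe sets passed. Adcy9, an adenylyl cyclase, was higher in DBA/2J (0.62 ± 0.11 SE, adjusted p = 0.00153), as with 1419811_PM_at (1.22 ± 0.12, adjusted p = 2.94e-06, and 0.83 in risperidone mice, adjusted p = 0.000892), but its probe set 1418586_PM_at was lower (-0.45 ± 0.12, adjusted p = 0.0492). Pde10a, a phosphodiesterase of projection neurons, was lower (-0.43 ± 0.10, adjusted p = 0.0247, and -0.59 with 1419390_PM_at), as was Ppp1r1b, which encodes DARPP-32 (-0.61 ± 0.17, adjusted p = 0.0442). By other probe sets, Plcb1, a phospholipase C, was lower (-0.46 ± 0.11, adjusted p = 0.0184) and Cacna1a, a calcium channel subunit, higher (0.42 ± 0.09, adjusted p = 0.0136). Striatal projection neuron markers, which include Pde10a, Ppp1r1b and Gnal, were lower in 8 of 10 in the same comparison (median -0.39), with mean levels of 6.71 to 7.28 in A/J and 6.54 to 6.77 in DBA/2J control arrays. Their part in these differences was not tested.

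Markers of other cells in the strain comparison of control mice were lower in DBA/2J in 6 of 6 oligodendrocyte genes (median -0.62, with the myelin genes Mog and Mag passing at -1.42 and -0.86), 7 of 9 choroid plexus and ependyma genes (median -0.16) and 4 of 7 astrocyte genes (median -0.04). The astrocyte filament gene Gfap was lower with its lead probe set (-0.42, adjusted p = 0.0148) and higher with 1440142_PM_s_at (1.31, adjusted p = 3.81e-06). Cortex markers were lower in 4 of 8 (median 0.05), blood markers in 1 of 3 (median 0.23) and cerebellum markers in 1 of 4 (median 0.02). For the mean risperidone effect, which holds the Rgs4 call, the cortex median was -0.10 with 5 of 8 lower, the thalamus median -0.04 with 5 of 9 lower and the striatal projection neuron median 0.05 with 3 of 10 lower. All 9 of 9 markers of choroid plexus and ependyma had higher values (median 0.22), as did 3 of 3 of blood (median 0.45), with 0 called in either list and 0 and 3 at an unadjusted p under 0.05. The mean blood marker level was 9.04 to 9.85 in A/J control and 9.90 to 10.2 in A/J risperidone arrays, and 9.26 to 10.2 and 9.53 to 10.2 in the DBA/2J groups. The part of blood in the Rgs4 value was not tested. With the 3 regional marker levels as covariates the Rgs4 1448285_PM_at difference was -0.39 ± 0.07 (SE, adjusted p = 0.122), against -0.41 without them. Cortex markers are not among these 3 levels, and their part in the Rgs4 value was not tested. For risperidone within a strain, the cortex median was -0.0038 in A/J and -0.20 in DBA/2J. In each strain 5 of 8 were lower and 0 were called, with 0 of 8 in A/J and 3 of 8 in DBA/2J at an unadjusted p under 0.05.

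For each member the genes that varied most like it were found from lead probe sets, by the correlation of deviations from the group means over the 16 arrays. The genes were picked for the highest r among all genes, which by itself favours high values, so these are descriptions. Rgs4 was most like Fam78a (r = 0.917), Rps6ka3 (0.890) and Il1rapl1 (0.886). Rgs16 was most like Mrvi1 (r = 0.907), Prkcd (0.901), which is also on the thalamus list, and BC080696 (0.889). Rgs8 was most like Tunar (r = 0.914), Pcolce2 (0.911) and Olig1 (0.910), and Rgs2 most like Set (0.83), Zfp326 (0.816) and Tcf25 (0.807).

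For the R7 members the likest genes were Srr (r = 0.897), Sox4 (0.892) and Eef2k (0.883) for Rgs7 and Elovl7 (0.953), Ddx50 (0.933) and Urgcp (0.916) for Rgs9. Those of Rgs10 were Nap1l5 (r = 0.934), Sez6l2 (0.901) and Ppp1r14a (0.886), and those of Rgs14 were Gm29811 (0.843), Prdm8 (0.828) and Kdm7a (0.826). Rgs17 was most like Ado (r = 0.932), Gpx4 (0.926) and Stx7 (0.918), and Rgs20 most like Myef2 (0.939), Fndc3b (0.908) and Cxcr3 (0.908). The last 2 members hold the values of DBA/2J control replicate 4 that stood apart, which enter these correlations.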

How the data were processed

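The authors deposited a log2 level for each probe set of an Affymetrix mouse perfect-match array. Per the submitters' processing notes the authors used RMA; its version and other steps are not given in the sources used here. The levels were used without further scaling. Leaving out 104 array controls, 45037 of 45141 probe sets entered the tests, and none was dropped for a low level. The platform's table gave 1 symbol for 28898 of them, several for 551 and none for 15588. Where probes lie within a gene, and whether they match both strains equally, was not analysed here. Strain differences are therefore differences of array signal.

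The 16 arrays entered 1 linear model with a mean per group, in limma 3.58.1 (lmFit, eBayes, R 4.3.3), with two-sided p-values adjusted by Benjamini-Hochberg over the 45037 probe sets within each of 6 comparisons. Called, passed, rose and fell mean an adjusted p under 0.05. Probe sets of a gene were compared by the same model on lead minus other probe set. The procedure was tested on simulated data. Figures were drawn with matplotlib 3.10.9.

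The members, the 17 lists (190 entries, 168 matched) and the settings were chosen with earlier results of these data known. By the rule for names, every member is described by its lead probe set and any other that was called or changed unequally, list genes are named where called or among the 3 smallest p, and the 3 genes most like each member are given. Further member probe sets, and Drd2, Gnb5 and other genes named for their known role, were chosen after their values were seen. The DBA/2J share is the median position of an array between the control means of 49 marker probe sets, or of 46 to 49 chosen without the array itself for control arrays (absolute log2 difference of at least 1.5, level of at least 7, adjusted p under 0.01). Alternatives were 11 settings and leaving out each of 16 arrays. Of 120 array pairs 0 were identical (r from 0.9704 to 0.9951).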

Additional observations from a re-analysis of the deposited data

Results flagged for a closer look

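Dixon's test at the 95% level was applied to the 4 arrays of each group for each of the 18 probe sets, 72 groups in all. It marked 8, and chance alone marks about 1 in 20. Rgs4 had 1416286_PM_at at 9.34 in A/J risperidone replicate 3, against 9.40 in each of the others, and 1416287_PM_at at 8.83 in DBA/2J control replicate 4, against 9.48 to 9.50. Rgs9 had 1439635_PM_at at 4.41 in DBA/2J control replicate 3, against 4.75 to 4.78, and 1426033_PM_at at 5.34 in DBA/2J risperidone replicate 4, against 4.60 to 4.65. Rgs16 had 1426037_PM_a_at at 6.22 in A/J risperidone replicate 3, against 5.67 to 5.69, and at 5.23 in DBA/2J risperidone replicate 4, against 5.53 to 5.56. Rgs17 was at 7.14 in DBA/2J risperidone replicate 3, against 7.52 to 7.56. Rgs20 had 1446199_PM_at at 5.82 in DBA/2J risperidone replicate 1, against 6.04 to 6.07. A/J risperidone replicate 3 is the array of its group whose strain markers were at the A/J level (0.584%).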

How the results depend on the processing

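The precision of each value is limited by 4 arrays per group. Of the 2 called values, Rgs4 1448285_PM_at (mean risperidone effect) kept its direction in every setting, at adjusted p from 0.00195 to 0.676. Rgs16 1451452_PM_a_at (strain, control mice) reversed with the DBA/2J share as a covariate (0.57 ± 0.66 SE, adjusted p = 1), where the share is almost the strain itself by construction. The number of member probe sets called for the mean effect, 1, was 0 with 1 lead probe set per gene, with the DBA/2J share or 3 regional marker levels as covariates, and without 3 or 5 arrays in doubt. For strain in control mice, 1, it was 3 when only levels above the median were kept, 2 with trend and robust options or array weights, and 0 with only the arrays compared, with either covariate, or without 5 arrays. For risperidone in DBA/2J, 0, it was 1 with that filter and 1 with trend and robust options (Rgs4 1448285_PM_at, adjusted p = 0.0408 and 0.0333). For strain in risperidone mice, 0, it was 1 in each of these and 1 with array weights. The filter tests fewer probe sets; for the other settings the cause was not tested. Leaving out each array gave 0 to 1 for risperidone in DBA/2J (1 without risperidone replicate 2), 0 to 1 for the mean effect, 0 to 2 for strain in control mice (2 without A/J control replicate 2 or A/J risperidone replicate 3) and 0 to 2 for strain in risperidone mice (1 without DBA/2J control replicate 4, 2 without DBA/2J risperidone replicate 2). It gave 0 throughout for risperidone in A/J, the interaction and probe set pairs.

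Replicate numbers were not taken as pairs, since 1, 2, 1 and 1 of 4 same-numbered correlations exceeded 0.1 in the 4 group pairs. The same-numbered means (0.049, 0.074, 0.056 and 0.025) were nevertheless above the means of the other correlations (-0.016, -0.025, -0.02 and -0.008) in each group pair. With the number as a replicate block, 2 member probe sets were called for strain in control mice (Rgs8 added, against 1), and the counts of the other comparisons did not move.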
